A study of Sus scrofa with 6 samples.

Results

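The insulin-like growth factor (IGF) axis was followed through its accessible chromatin in pig embryos. Its members were the ligands IGF1 and IGF2, the receptors IGF1R, IGF2R and INSR, the binding proteins IGFBP2, IGFBP3, IGFBP4 and IGFBP5, and IGF2BP1, which are 10 of the 28224 genes annotated on Sscrofa11.1. Peaks were taken when they overlapped the gene body or the 2 kb before it, here called the gene window, and peaks of different libraries that overlapped were merged into regions. A peak that overlapped was taken whole, with the length and counts of any part outside the window. A merged region was counted for a member when a peak of any library in it overlapped the window. Region values hold all peaks merged into the region, also those of libraries whose peaks did not reach the window. This gave 205 of the 294825 regions of the series, of which 63 held a peak in all 6 libraries, against 78533 such regions in all. Peaks were assigned by gene names and positions, and the 10 genes were chosen with earlier results of these data known.

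Open chromatin had been read out cell by cell (scATAC-seq), with Tn5 transposase cutting accessible DNA and barcodes tying the cut sites to cells. Somites, the segments of mesoderm that give rise to trunk muscle, were taken on embryonic day 18 (E18) and day 21 (E21). On day 28 (E28) the sample was the myotome, the compartment of the somite from which skeletal muscle forms. Each stage was sampled in Tibetan pigs (ZZ) and in Duroc × Tibetan pigs (DZ), with 1 library for each stage and breed, and each library was a pool of embryos from 1 sow. The labels name no genetic modification and no treatment. The 2 libraries of a stage therefore differ in breed and sow together, and E28 differs from the earlier stages in tissue as well as in age, so that stage and tissue cannot be told apart in any comparison with E28.

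IGF1 and IGF2 are secreted growth factors that signal through the receptor tyrosine kinase IGF1R, and insulin and IGF2 also signal through INSR. IGF2R takes up IGF2 and delivers it to lysosomes without signalling as a kinase, while the IGFBPs hold the ligands in the extracellular space and set how much of them reaches the receptors. The axis promotes proliferation, differentiation and growth of muscle cells, and IGF2BP1 is an RNA-binding protein of embryonic tissues named for its binding to IGF2 mRNA.

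Of the 205 regions, 16 were promoter regions (overlapping the 2 kb before an annotated transcript start), 20 overlapped exons and 169 lay in introns. IGF1R held 89, INSR 27, IGF2R 24, IGF1 21, IGF2BP1 14, IGF2 10, IGFBP2 9, IGFBP4 4, IGFBP5 4 and IGFBP3 3. Peaks were most numerous at E18, where 163 and 139 of the regions held one (ZZ and DZ). Later, 102 and 117 did in the E21 pair, and 88 and 96 in the E28 pair. Whole libraries also held fewer peaks with stage, from 217138 (ZZ) and 199846 (DZ) in the E18 pair. Their numbers were 171898 and 188857 in the E21 pair, then 131975 and 137769 in the E28 pair. This fall is therefore not read as a trait of the members. In 55 regions a peak was called in 1 library alone. Peaks were shared by all libraries in 12 of 16 promoter regions and in 41 of 169 intron regions.

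The sequences below were read from the Sscrofa11.1 assembly (RefSeq) 5′ to 3′ on the strand of the gene. They belong to some of the regions compared here between stages or between classes of cell. Each is 200 bases long. The promoter sequence ends at the base before the transcript start, and the others lie at the centre of the stretch that peaks of all 6 libraries covered. Capitals mark the letters of the motifs searched on both strands, namely CAGCTG (an E box core that muscle bHLH factors can bind), GCTCGC (the core recognised by ZBED6, a repressor of IGF2 in muscle), CCAAT (the box bound by NF-Y), GGGCGG (the SP1 box), TATAAA (the TATA box) and CATTCC (the TEAD core). The paired NFI motif was also searched and was in none of the member regions. The first is the promoter of IGFBP5 at chr15:118877788-118877987 (minus strand), which rose with stage.
IGFBP5 promoter: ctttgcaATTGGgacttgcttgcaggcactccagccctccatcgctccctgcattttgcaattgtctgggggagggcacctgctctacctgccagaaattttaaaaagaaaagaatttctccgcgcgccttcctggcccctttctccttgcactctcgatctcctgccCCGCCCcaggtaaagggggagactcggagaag

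The next are the elements inside receptor genes. INSR carries a rising element in intron 2 at chr2:71871847-71872046 (plus strand). IGF2R carries a rising element outside exons at chr1:7420182-7420381 and a falling, GC-rich one in intron 2 at chr1:7447423-7447622 (both minus strand), and IGF1R a rising one in intron 1 at chr1:137643944-137644143 (minus strand).
INSR intron 2: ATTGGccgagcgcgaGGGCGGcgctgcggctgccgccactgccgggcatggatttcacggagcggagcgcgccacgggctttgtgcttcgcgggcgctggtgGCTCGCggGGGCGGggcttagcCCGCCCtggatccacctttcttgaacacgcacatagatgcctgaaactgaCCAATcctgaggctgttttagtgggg
IGF2R rising element: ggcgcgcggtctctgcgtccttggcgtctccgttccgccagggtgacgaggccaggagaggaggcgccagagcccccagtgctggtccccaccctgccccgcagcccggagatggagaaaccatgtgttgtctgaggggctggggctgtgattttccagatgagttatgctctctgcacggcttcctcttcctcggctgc
IGF2R intron 2: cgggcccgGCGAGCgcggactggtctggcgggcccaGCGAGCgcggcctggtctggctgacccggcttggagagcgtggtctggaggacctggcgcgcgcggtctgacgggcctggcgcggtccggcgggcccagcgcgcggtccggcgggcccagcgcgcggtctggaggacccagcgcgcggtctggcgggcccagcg
IGF1R intron 1: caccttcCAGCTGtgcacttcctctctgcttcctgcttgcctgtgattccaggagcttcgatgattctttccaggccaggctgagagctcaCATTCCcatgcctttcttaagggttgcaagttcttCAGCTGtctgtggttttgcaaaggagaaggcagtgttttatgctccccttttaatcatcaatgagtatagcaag

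The last 2 are intron elements whose levels differed between the classes of cell, in IGF2BP1 intron 2 at chr12:25211559-25211758 and in the 3′ part of IGF1 at chr5:81896916-81897115 (both plus strand).
IGF2BP1 intron 2: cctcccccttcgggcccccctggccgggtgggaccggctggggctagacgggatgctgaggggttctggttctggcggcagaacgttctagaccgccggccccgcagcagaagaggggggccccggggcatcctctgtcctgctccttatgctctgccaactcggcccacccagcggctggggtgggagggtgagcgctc
IGF1 3′ intron: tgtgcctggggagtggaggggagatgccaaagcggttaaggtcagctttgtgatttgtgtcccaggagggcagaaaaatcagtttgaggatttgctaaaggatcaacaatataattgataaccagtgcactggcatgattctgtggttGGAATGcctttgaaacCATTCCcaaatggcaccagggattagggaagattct

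Of the 12 shared promoter regions 7 held an SP1 box (58.3%), against 35.3% of 28223 promoters. None of the 12 held TATAAA, which 8.86% of all promoters did. The sets are unlike, since all promoters are the 200 bases before every annotated gene, with or without a peak. The 12 all held peaks, and those of IGF2 at 12.5 kb and of IGFBP3 at -2.4 kb were read at the centre of the region. Over the 62 member regions with a stretch long enough to read, 19.4% held the SP1 box against 22.2% of 69424 regions, 24.2% held CATTCC against 14.5%, 17.7% held CAGCTG against 20% and 11.3% held GCTCGC against 8.04%. The INSR element held 3 SP1 boxes, 2 CCAAT boxes and 1 GCTCGC, the IGF1R intron 1 element 2 CAGCTG and 1 CATTCC, and the 3′ IGF1 element 2 CATTCC on opposite strands. The IGF2R intron 2 element was 81.0% G and C and held GCTCGC at 2 places. In the mouse, intron 2 of Igf2r holds an imprinted CpG island from which an antisense RNA starts. A match of letters is a description and not a binding site.

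The gene windows were compared first. Values are counts-per-million (CPM) of the library total, given for ZZ and then DZ at E18, at E21 and at E28 in turn. Between 89816504 and 133037579 counts lay behind each library. Windows were tested with the edgeR quasi-likelihood test over all genes, with a term for breed and Benjamini-Hochberg adjustment at 0.05.

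Between E28 and E18, 4 of the 10 windows passed, with IGF1, INSR and IGFBP5 higher and IGFBP2 lower at E28. Of all 23286 windows tested 43.2% passed, a share close to that of the members, and the median log2 fold change of the members was 0.00 against -0.04 over all windows. Without E18 DZ 1 window passed, in a fit that called 7.42% of all windows, and without E28 DZ 2, with 34.7% called.

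The IGF1 window had 38.0, 32.7, 39.3, 47.6, 54.4 and 52.1 CPM. Both E28 libraries lay above every earlier one, and the rise was 0.55 ± 0.14 on the log2 scale (SE, 2 libraries per stage, edgeR adjusted p 0.0248). The call was lost without 3 of the libraries, where the rise was 0.38 without E18 DZ (adjusted p 0.185), 0.55 without E28 DZ (0.0681) and 0.50 without E28 ZZ (0.0879), so that the size moved most without E18 DZ among these.

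The INSR window had 94.9, 89.7, 92.3, 97.5, 120 and 131 CPM, with the E28 pair apart from the other four libraries. Its rise of 0.41 ± 0.09 (edgeR adjusted p 0.0197) was 0.30 without E18 DZ (0.178), 0.38 without E21 DZ (0.0535) and 0.30 without E28 DZ (0.0966). For IGFBP5, which encodes a binding protein that is abundant in differentiating muscle, the window had 67.4, 72.5, 76.3, 84.9, 96.9 and 101 CPM, and the libraries of the 3 stages did not overlap. The rise of 0.46 ± 0.08 (edgeR adjusted p 0.00831) was 0.44 without E18 DZ (0.0903) and 0.48 without E18 ZZ (0.0528).

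IGFBP2, an embryonic binding protein, went the other way, with 83.7, 67.7, 65.7, 62.6, 46.5 and 32.8 CPM. The stages again did not overlap, and the log2 change was -0.98 ± 0.11 against E18 (edgeR adjusted p 0.00397), which passed whichever library was left out. In the E18 pair the peaks taken for this window covered 19580 and 12942 bp, against 5217 and 5965 bp in the E28 pair. When covered length was an offset in the fit, so that counts per covered base were compared, the change was 0.52, close to the median of 0.54 that all windows had in that fit. The direction of this fall therefore depends on whether covered length is part of the measure. In the same fit the rises of the IGF1, INSR and IGFBP5 windows were 0.88, 1.09 and 0.76, beside that median of 0.54.

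The other six windows did not pass. IGF1R, the widest window, had 311, 316, 286, 311, 319 and 302 CPM (log2 change -0.05 ± 0.08), IGF2R 159, 142, 124, 130, 141 and 133.98 CPM (-0.17 ± 0.09), and IGF2BP1 108, 114, 115, 113, 110 and 116 CPM (-0.01 ± 0.08). Their changes were small beside those of IGFBP2. IGFBP3, the main carrier of IGFs in blood, had 21.3, 22.9, 21.3, 25.4, 23.0 and 24.5 CPM (0.07 ± 0.11).

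For IGF2 and IGFBP4 the libraries of a stage disagreed. The IGF2 window had 76.2, 45.9, 39.7, 41.5, 47.3 and 79.7 CPM, and that of IGFBP4 had 76.4, 40.2, 47.9, 94.9, 45.4 and 44.4 CPM. High values went with long peaks: the peaks taken for the IGF2 window covered 21698 bp in E18 ZZ and 12206 bp in E18 DZ, and those for the IGFBP4 window 14427 and 5122 bp. These lengths include parts of peaks outside the windows. In an IGFBP4 region the stretch shared by all libraries (chr12:21958572-21962531) lay outside the window (chr12:21966524-21982043). The part of outside counts in the high values was not tested. The log2 changes of IGF2 and IGFBP4 were 0.01 ± 0.41 and -0.42 ± 0.53, with errors at least as large as the changes.

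**Figure D1:**
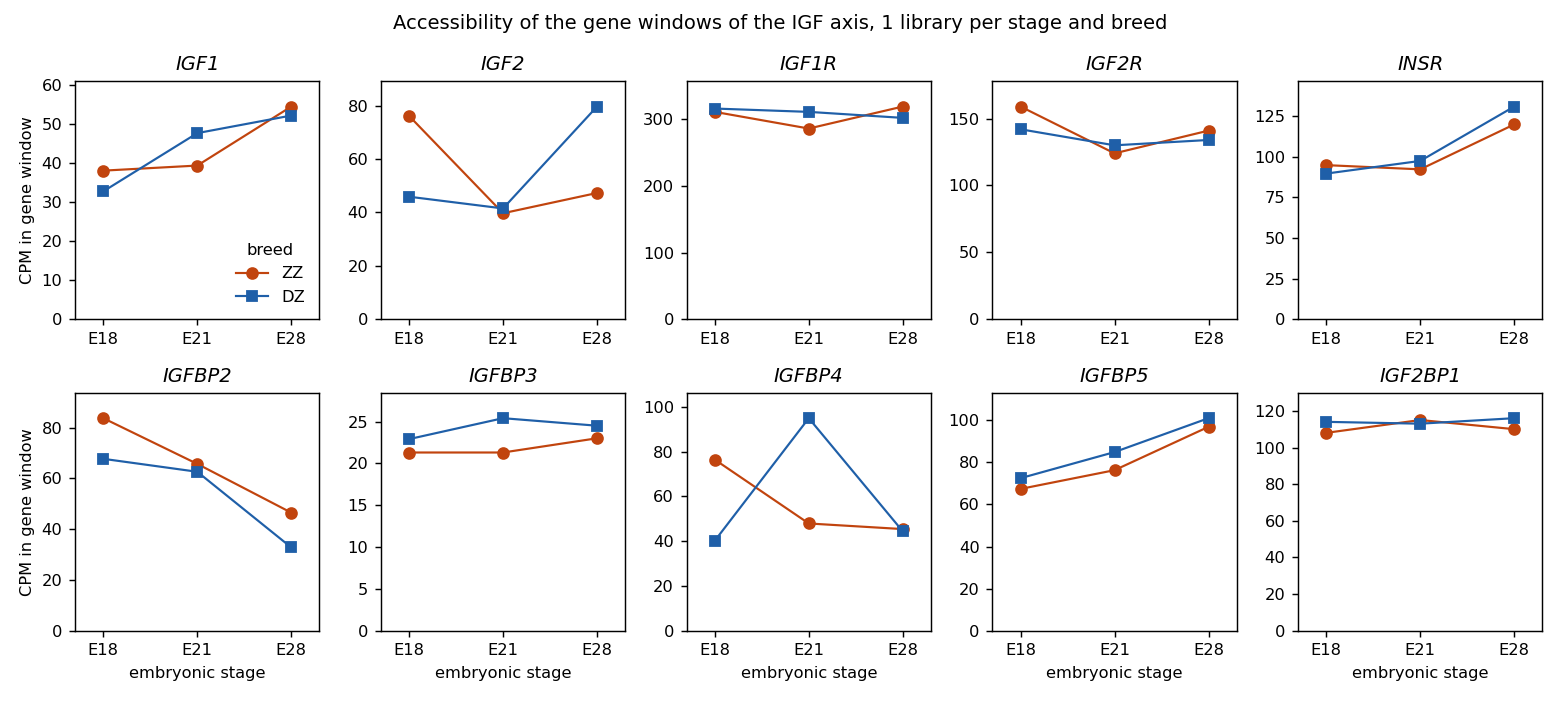
CPM in the window of each gene (y axis, from 0) at each stage (x axis), with ZZ as circles and DZ as squares, 1 library per point. IGF1, INSR and IGFBP5 are highest and IGFBP2 is lowest in both E28 libraries, while in IGF2 and IGFBP4 the breeds lie far apart at 2 of the 3 stages.

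The steps between neighbouring stages gave fewer calls. Between E21 and E18, 0 of the 10 windows passed by edgeR, with 4.15% of all windows called. At an unadjusted p under 0.05 there were 2 (29.6% of all windows), and DESeq2 called 2 (34.1% of all). Between E28 and E21 the IGFBP2 window alone passed (-0.75 ± 0.11, edgeR adjusted p 0.0265), with 7.43% of all windows called. With the offset it was 0.13 (adjusted p 0.451), so that the direction turned. The call passed in 1 of the 6 fits without a library, the one without E28 ZZ (-0.89), and ranged from -0.59 without E21 DZ to -0.91 without E21 ZZ.

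Single regions were tested in the same way. Of the 63 shared regions 20 passed when E28 was compared with E18, of which 8 were more and 12 less accessible at E28, with 37.1% of all shared regions called. Both promoter regions that passed were higher (IGF1 and IGFBP5), and the other ten shared promoter regions did not pass. Among exon regions 1 was higher and 3 were lower, and among intron regions 5 were higher and 9 lower. The median of the 63 was 0.03, against -0.02 over all shared regions. Fewer regions passed when a library of E18 was left out (6 without DZ, 9 without ZZ, with 10.3% and 20.9% of all shared regions called) or one of E21 (11 in both cases, with 27.1% and 26.7% called). Because peaks were called in each library separately, each region is given with its covered length where this bears on the call. Of the 20 calls 11 kept call and direction with covered length as an offset, in which the median of all shared regions was 0.43.

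The promoter region of IGF1, on chromosome 5, rose most among the promoters. It had 5.58, 6.15, 13, 14.0, 23.7 and 21.9 CPM, so that each stage lay above the one before it in both breeds. The rise between E28 and E18 was 1.92 ± 0.17 on the log2 scale (3.77-fold, edgeR adjusted p 0.00272), made up of 1.14 from E18 to E21 (adjusted p 0.0278) and 0.78 from E21 to E28 (0.0492). Its peaks were 2397 and 1949 bp long in the E18 pair against 3063 and 3021 bp in the E28 pair, and per covered base, with the offset, the rise between E28 and E18 was 1.42. That rise passed whichever library was left out, with 1.83 to 2.0. Its steps were less firm. With the offset the first was 0.51 and did not pass (adjusted p 0.0578) while the second was 0.92 (0.000637), and without either E21 library neither step passed, nor did the first without E18 DZ.

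No other shared region of IGF1 passed as a rise. The intron region 37.5 kb after the start had 3.89, 3.09, 3.94, 4.46, 1.18 and 1.78 CPM and was lower at E28 (-1.30 ± 0.37, edgeR adjusted p 0.0391), but not with the offset (-0.37) nor without any library but E28 DZ, from -0.88 without E18 ZZ to -1.71 without E18 DZ. The 3′ intron region (chr5:81896328-81897605) had 9.90, 8.52, 10.2, 12.7, 14.1 and 6.28 CPM and the E28 libraries lay on either side of the others (0.04 ± 0.36).

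The most accessible promoter region of IGF2, 18.0 kb after the start of the curated transcript (chr2:1474895-1481410), had 29.2, 28.1, 23.7, 25.2, 32.9 and 44.6 CPM. Both E28 libraries were the highest, but the change of 0.38 ± 0.16 did not pass (edgeR adjusted p 0.113). Without E28 ZZ it was 0.62 and passed (0.00882).

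Among the receptors, IGF2R held neighbouring elements that moved in opposite directions. A region 52.2 kb after the start (chr1:7419308-7421250), which overlaps an exon outside the stretch printed above, had 3.42, 1.63, 8.71, 12.6, 22.1 and 14.5 CPM and rose by 2.83 ± 0.43 (edgeR adjusted p 0.00711), the largest rise among the 63. The region beside it, 46.2 kb after the start (chr1:7421853-7430742), had 54.0, 48.0, 33.2, 34.6, 24.2 and 21.7 CPM and fell by 1.2 on the log2 scale (-1.2 ± 0.11, adjusted p 0.00292). Neither pair of stages overlapped, the changes with the offset were 2.05 and -0.53, and both calls held whichever library was left out (2.34 to 3.48 and -1.31 to -1.08).

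IGF2R intron 2, with the GC-rich element printed above (region chr1:7446115-7449025), had 23.2, 25.2, 19.1, 17.9, 14.5 and 16.6 CPM. It fell by 0.68 on the log2 scale (-0.68 ± 0.14, edgeR adjusted p 0.0145) while covered lengths hardly differed, at 2911 and 2828 bp in the E18 pair against 2553 and 2578 bp in the E28 pair, and with the offset it was -0.52 (adjusted p 0.00655). The call was lost without E18 DZ (-0.70, 0.118) and without E18 ZZ (-0.67, 0.0911). The IGF2R promoter had 30.5, 30.8, 32.2, 34.4, 36.4 and 39.9 CPM (0.27 ± 0.10, adjusted p 0.0899).

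**Figure D2:**
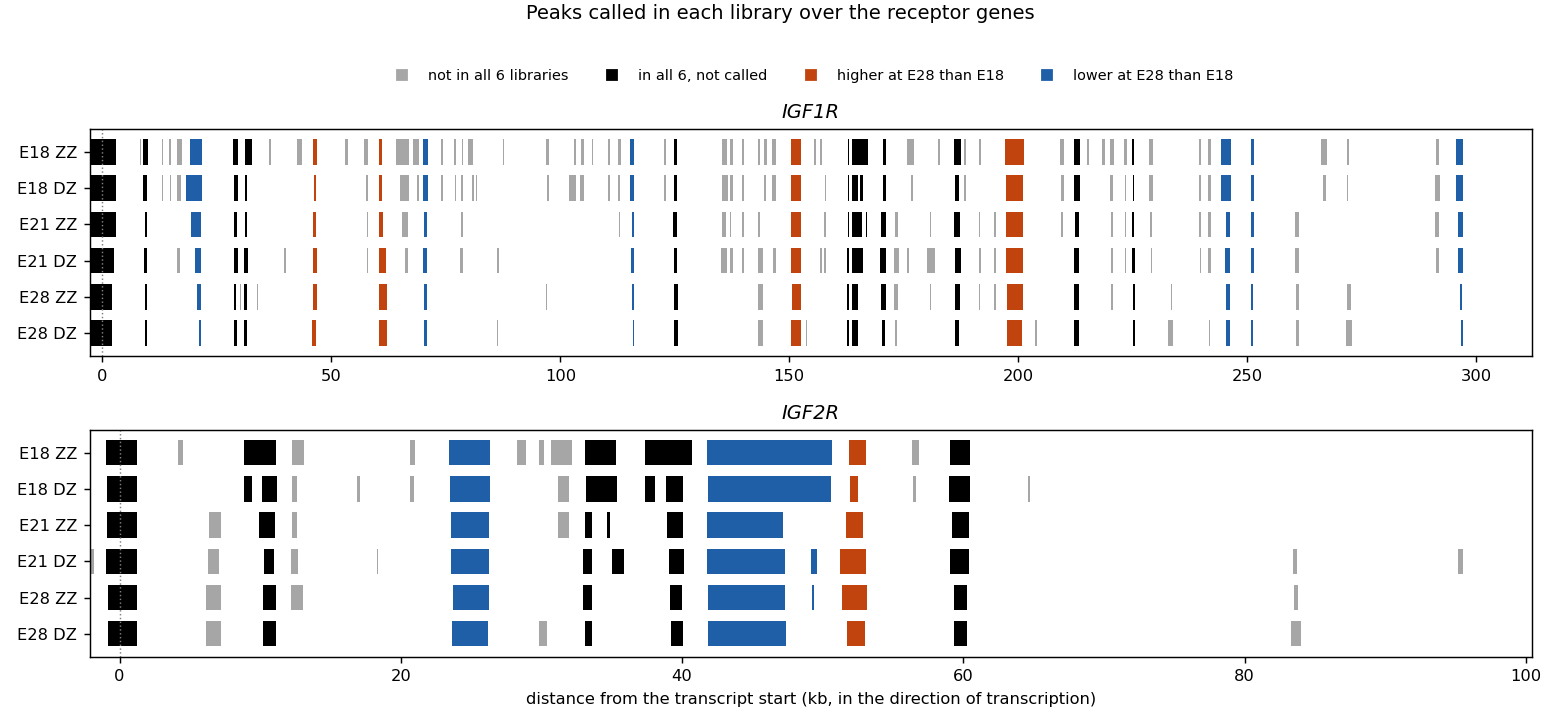
Peaks called in each of the 6 libraries (rows) over IGF1R (top) and IGF2R (bottom), by distance from the transcript start in kb (x axis). Peaks are drawn to scale, in orange-red where the region was higher at E28 than at E18, in blue where it was lower, in black where it was shared and not called and in grey where it was not shared by all libraries. In IGF2R the orange-red peak at 52.2 kb lies beside the blue block at 46.2 kb, and IGF1R has more grey peaks at E18 than at E28.

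Of the 21 shared regions of IGF1R, 4 passed as rises to E28 and 6 as falls. The promoter region (chr1:137687423-137693158) had 79.4, 85.7, 93.5, 99.1, 104 and 98.3 CPM and did not pass (0.25 ± 0.08, edgeR adjusted p 0.0615). Of the intron regions, that of intron 1 at 46.3 kb had 2.07, 1.43, 2.43, 2.21, 5.98 and 4.39 CPM, with both E28 libraries above the rest. It rose by 1.53 ± 0.32 (adjusted p 0.0151), or 1.15 with the offset, and did not pass without E18 DZ (1.36, 0.156) or E18 ZZ (1.71, 0.0754).

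In intron 2 of IGF1R the most accessible element, at 199.2 kb, had 45.6, 47.7, 54.5, 51.6, 70.4 and 55.9 CPM (0.38 ± 0.10, edgeR adjusted p 0.0327) and that at 151.5 kb had 19.3, 25.2, 26.1, 30.2, 30.1 and 32.6 CPM (0.46 ± 0.11, 0.0213). Both rises were small, and most of the calls were lost in fits without a library while the direction held. The first passed without E28 DZ alone (0.51, 0.0112) and was 0.25 (0.131) when E28 ZZ was left out, 0.30 (0.19) when E18 ZZ, 0.46 (0.0898) when E18 DZ, 0.39 (0.0743) when E21 ZZ and 0.38 (0.0768) when E21 DZ was. The second was lost without a library of E18 (0.40 and 0.15 without ZZ, 0.52 and 0.117 without DZ, as log2 change and adjusted p) or of E21 (0.47 and 0.0533, 0.46 and 0.0565). The element at 212.8 kb was lowest in the E21 pair, with 10.3, 9.62, 6.26, 6.86, 13.1 and 16.8 CPM, and passed as a rise from E21 to E28 (1.2 ± 0.22, adjusted p 0.0393).

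Intron 20 of IGF1R held a region at 296.4 kb with 5.24, 5.54, 2.48, 1.94, 0.757 and 1.28 CPM. It was lower by 2.46 at E28 (-2.46 ± 0.40, edgeR adjusted p 0.00792), but the peaks were 1436 and 1482 bp long in the E18 pair against 293 and 426 bp in the E28 pair, and with the offset it did not pass (-0.43). Without E18 DZ it was -2.57 (0.0532). Of the other calls of IGF1R, 3 are given here, picked with their values in view. The intron 2 region at 61.3 kb rose by 2.07 ± 0.25 (edgeR adjusted p 0.00432), or 0.85 with the offset. A further region of intron 1 was at -2.09 ± 0.28 (0.00533), but at 0.02 with the offset, and the intron 2 region at 70.5 kb was at -1.55 ± 0.27 (0.00922), or -0.85 with the offset. Peaks in both E18 libraries and at no later stage were found in 15 regions of IGF1R, peaks in both libraries of E21 and of E28 and not at E18 in 3, and peaks in both E28 libraries alone in 1. The share of all regions of the series with these patterns was not computed.

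The INSR element in intron 2 (chr2:71870405-71872882, 74.4 kb after the start) had 34.1, 32.5, 46.0, 48.6, 58.9 and 66.6 CPM, above the promoter of the same gene at every stage. Each stage lay above the one before it. The rise was 0.87 ± 0.11 (edgeR adjusted p 0.00499). Peaks were shorter at E28 (1691 and 1699 bp, against 2310 and 2262 bp in the E18 pair), so that the rise was 1.31 with the offset, and it passed whichever library was left out (0.72 to 1.02). The INSR promoter had 28.1, 28.0, 32.1, 30.6, 38.2 and 33.3 CPM (0.30 ± 0.10, adjusted p 0.056).

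Among the binding proteins, the IGFBP5 promoter region (chr15:118873609-118882406) had 63.3, 70.6, 76.0, 79.3, 97.0 and 99.5 CPM. The stages did not overlap and the rise of 0.51 ± 0.08 (edgeR adjusted p 0.0071) was 0.56 with the offset. It passed whichever library was left out, at 0.51 to 0.52. This region shares most of its counts with the IGFBP5 window, so the rises of the window and of the region are not separate results. The IGFBP5 intron region 9.9 kb after the start did not follow it, with 4.98, 3.86, 4.95, 2.77, 5.10 and 3.68 CPM (-0.06 ± 0.28).

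The IGFBP2 promoter had 44.3, 47.6, 58.0, 55.6, 45.9 and 28.6 CPM and did not pass (-0.38 ± 0.18, edgeR adjusted p 0.143), with E28 DZ alone below both E18 libraries. Without E28 ZZ the change was -0.71 (0.00259) and without E28 DZ -0.07. Intron 1 of IGFBP2 at 8.6 kb had 9.56, 8.31, 3.25, 2.53, 0.657 and 3.20 CPM and was lower at E28 (-2.43 ± 0.72, adjusted p 0.0453), but not with the offset (-0.39). That call was also lost without a library of E18 (-1.88 without ZZ, -3.11 without DZ) or of E21 (-2.61 without ZZ, -2.62 without DZ). A further region overlaps the 3′ end of IGFBP2 and is centred 30.2 kb after the start. The stretch of it shared by all libraries (chr15:118853286-118854004) lay outside the window (chr15:118820092-118850985), beyond the end of the gene. This region had 12.9, 13, 10.5, 9.99, 8.08 and 9.11 CPM (-0.63 ± 0.20, 0.0495), and its change was 0.38 with the offset. It passed without E28 DZ alone (-0.77), and ranged down to -0.50 without E28 ZZ.

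For IGFBP4, a binding protein that restrains IGF action until it is cleaved, the promoter had 35.9, 36.6, 46.4, 39.1, 45.4 and 42.0 CPM (0.22 ± 0.10). The promoter of IGFBP3 had 16.0, 16.9, 18.0, 20.5, 19.8 and 20.5 CPM (0.25 ± 0.14) and that of IGF2BP1 62.2, 66.2, 64.6, 67.2, 65.6 and 67.1 CPM (0.00 ± 0.08). None of these passed. The intron 2 element of IGF2BP1 had 21.0, 20.5, 25.8, 22.1, 20.4 and 20.2 CPM, without a trend (-0.08 ± 0.13). Another element of that intron, 25.8 kb after the start, had 9.94, 12.6, 8.59, 9.51, 5.15 and 7.86 CPM and was lower at E28 (-0.85 ± 0.23, edgeR adjusted p 0.032), but its change with the offset was 0.00 and the call held without E28 DZ alone (-1.08), ranging down to -0.65 without E28 ZZ.

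**Figure D3:**
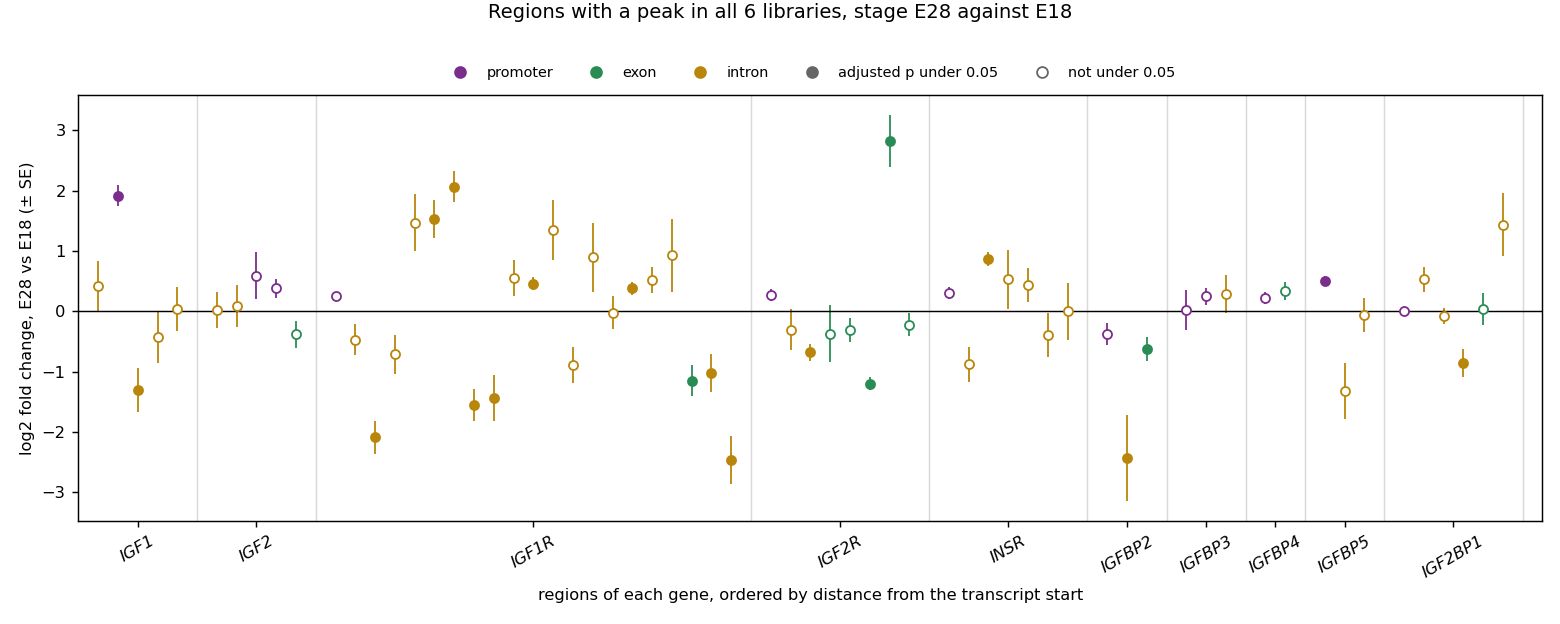
Log2 fold change of E28 against E18 with its SE (y axis) for the 63 regions with a peak in all libraries, grouped by gene and ordered by distance from the transcript start (x axis), with filled points for regions that passed. The filled promoter points are those of IGF1 (1.92) and IGFBP5 (0.51), and the largest filled points of IGF2R lie side by side at 2.83 and -1.2.

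Between E21 and E18, 3 of the 63 regions passed, with 6.32% of all shared regions called. They were the IGF1 promoter (1.14) and the IGF2R regions at 52.2 kb (2.10) and 46.2 kb (-0.66). With the offset only the region at 52.2 kb still passed (1.24, edgeR adjusted p 0.000142), since the IGF1 promoter was at 0.51 (0.0578) and the region at 46.2 kb at -0.02 (0.944). Between E28 and E21, 4 passed, with 6.94% of all called: the IGF1 promoter, the IGF1R elements at 212.8 kb and at 61.3 kb (1.46, a region named after its values were seen) and the IGF2R region at 46.2 kb (-0.54). These counts turned on single libraries. In the first step 14 passed without E28 ZZ and 13 without E28 DZ, in fits that called 20.6% and 20.7% of all shared regions, 1 without E18 ZZ (2.1% of all) and 0 without any of the other three (0% to 0.215%). In the second step 11 passed without E28 ZZ (20.7% of all), 0 without either E21 library (0%), and 1 or 2 when the E18 library of DZ or of ZZ was left out (4.64% and 4.79%). The members' counts thus moved with those of all regions.

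Some regions had peaks at 1 stage alone. Both E18 libraries and no other held a peak in 27 regions, both E28 libraries and no other in 2 and both E21 libraries and no other in 1. The share of all regions of the series with such patterns was not computed, so these counts are not read as a trait of the members. No fold is given for these, since a count of 0 there means that no peak was called. The E28 regions were introns of IGF1R (0.724 and 5.85 CPM) and INSR (1.22 and 1.22 CPM), and of 5 regions with peaks at E21 and E28 and not at E18 the most accessible was in IGF2R 6.7 kb after the start, with 1.88, 1.74, 5.08 and 6.95 CPM. The greater number at E18 went with the deeper E18 libraries and the longer sequence that peaks covered there, 168 and 191 Mb against 102 and 108 Mb at E28, and the part of depth was not tested.

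Purebred and crossbred embryos were compared with stage as a term. None of the members passed: 0 of 10 windows and 0 of 63 regions by edgeR, with 0.00429% of all windows and 0% of all shared regions called. At an unadjusted p under 0.05 there were 1 window and 2 regions, against 5.35% of all windows and 4.89% of all regions, and DESeq2 called 0 of each, against 2.26% and 0.202% of all. The window was that of IGFBP2, lower in DZ than in ZZ at all 3 stages by a mean of 0.26 on the log2 scale (-0.26 ± 0.09, edgeR unadjusted p 0.0319, adjusted p 0.829).

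IGFBP3 and IGFBP5 were higher in DZ at all 3 stages by 0.18 ± 0.09 and 0.13 ± 0.06, neither past the threshold (both adjusted p 0.829). The IGF1 promoter differed by 0.10 ± 0.13 and the IGF1R window by 0.05 ± 0.06. For IGF2 (0.06 ± 0.34) and IGFBP4 (0.04 ± 0.44) the error was several times the estimate.

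The tissue holds many classes of cell, and a library total mixes the number of cells of a class with the accessibility in each cell, which cannot be told apart in it. All 16 myogenic markers had counts in every library, with sums of 765.8 and 767.8 CPM at E18 and 722 and 858.1 at E28. Neural progenitor markers (8 of 8 with counts) had sums of 468.5 and 508.5 CPM at E18 and 257.2 and 310.6 at E28, epithelial markers (8 of 8) went from 331 and 318.2 to 152.9 and 150.7, endothelial markers (9 of 9) from 572.2 and 582 to 438 and 447.6, cardiac markers (6 of 6) from 419.8 and 324.8 to 130.4 and 212.9 and neuron markers (7 of 7 annotated) from 331.1 and 337.4 to 221 and 224.2, while fibroblast and mesenchyme markers (11 of 11) were at 782.8 and 722.5 at E18 and 984.6 and 896.8 at E28. The 58809 kept cells were therefore clustered without the sequence within 100 kb of members and markers, which gave 9 clusters.

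Cluster 4, with 12 of 16 myogenic markers raised, was called myogenic-like and held 6853 cells (792 and 722 at E18, 924 and 949 at E21, 1374 and 2092 at E28). Others were epithelial-like (cluster 1), sclerotome and cartilage-like (2), neural progenitor-like (3), fibroblast and mesenchyme-like (5), neuron-like (6), neural crest and glia-like (7) and endothelial-like (8). Cluster 0 had too few raised markers for a name. It held 409 and 406 cells at E18 and 4135 and 5910 at E28, and cluster 5 held 2209 cells in E28 ZZ and 365 in E28 DZ, so that library totals at E28 carry different mixtures in the 2 breeds.

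Members differed in the clusters where their windows were most accessible. These are levels as mean ± SD over libraries, ordered by the mean and with no test between clusters, and the count of libraries is that in which the cluster lay above all other cells of the library combined. The IGF1 window was highest in fibroblast and mesenchyme-like cells (82.1 ± 13.2 CPM, above the other cells in 6 of 6) and next in endothelial-like cells (65.3 ± 5.37), against 50.3 ± 16.6 in myogenic-like cells and 23.4 ± 6.49 in neural crest and glia-like cells. The IGF2 window, in contrast, had its highest mean in myogenic-like cells (64.9 ± 21.0, above the other cells in 6 of 6). The spread over libraries there overlapped that of epithelial-like cells (58.6 ± 19.6) and of sclerotome and cartilage-like cells (57.9 ± 20.2). This mean held a high value in E28 DZ (101.7). In both E18 libraries epithelial-like cells were higher, with 96.19 and 59.54 CPM against 77.61 and 50.93. Neuron-like cells were also higher in E18 DZ (56.25). In E28 ZZ sclerotome and cartilage-like cells (61.11) and cluster 0 (50.23) were above myogenic-like cells (47.9).

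Of the receptors, INSR was highest in endothelial-like cells (179 ± 32.6 CPM, above the other cells in 6 of 6) and between 88.4 and 111 CPM in every other cluster. IGF1R was highest in neural crest and glia-like cells (398 ± 30.2) and endothelial-like cells (385 ± 42.7), which overlapped, and then in myogenic-like cells (339 ± 31.2). IGF2R had 175 ± 14.8 in endothelial-like cells and 103 ± 19.6 in neural crest and glia-like cells.

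IGFBP3 (40.6 ± 10.2 CPM) and IGFBP4 (96.8 ± 16.9) had their highest means in endothelial-like cells as well, each above the other cells in 6 of 6, although single clusters exceeded them in single libraries. In E21 DZ the IGFBP4 window had 139.8 CPM in fibroblast and mesenchyme-like cells against 99.75 in endothelial-like cells. The peaks taken for this window covered 13767 bp in E21 DZ against 5242 bp in E21 ZZ. The part of counts from outside the window in these cluster levels was not tested. For IGFBP2 the mean was highest in neural progenitor-like cells (87.7 ± 29.2 over 5 libraries, without E28 DZ), which lay above the other cells in 3 of the 5, and lowest in fibroblast and mesenchyme-like cells (50.6 ± 15.9). IGF2BP1 had its highest mean in myogenic-like cells (146 ± 25.5, above the other cells in 6 of 6, though in E18 ZZ cluster 0 had 130.3 against 119), followed by neural crest and glia-like cells (123 ± 13). IGFBP5 lay between 59.8 and 91.5 in all clusters.

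**Figure D4:**
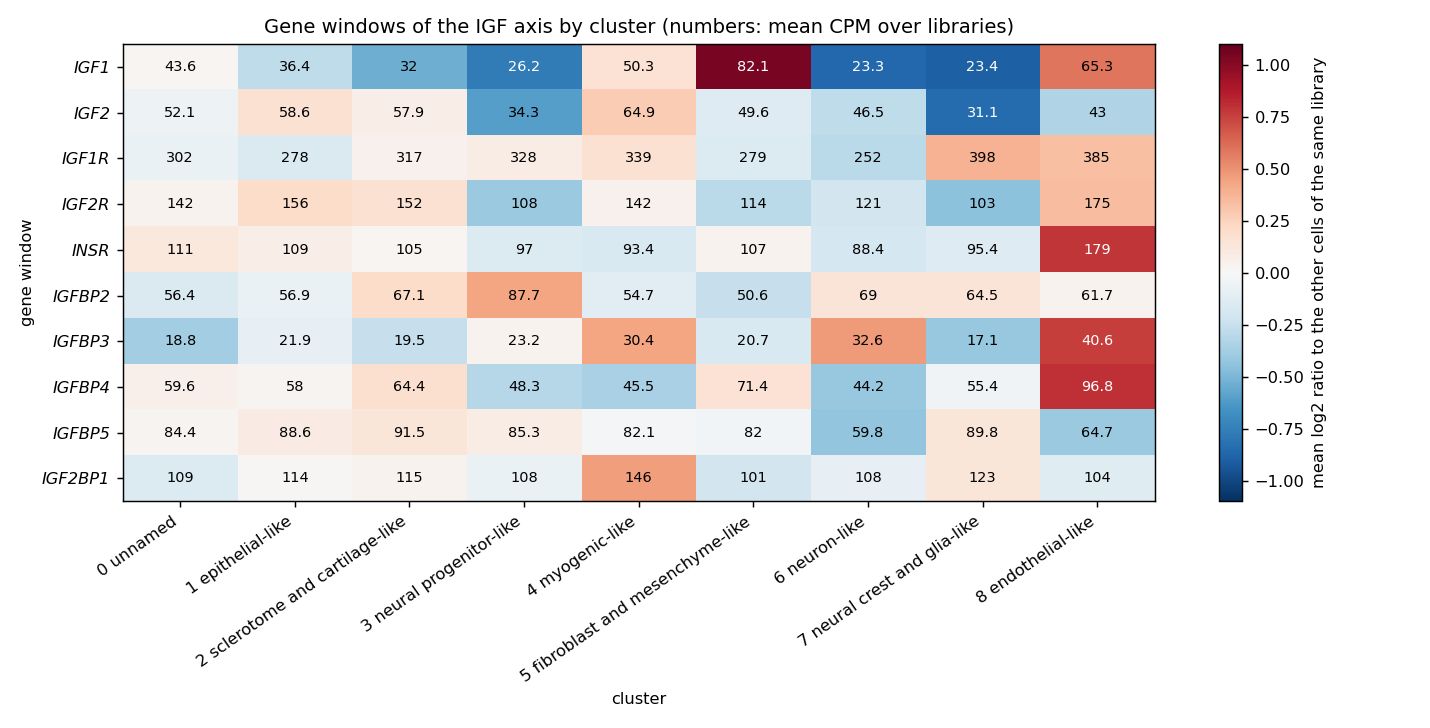
Gene windows (rows) by cluster (columns), coloured by the mean log2 ratio of CPM to the other cells of the same library, with the mean CPM printed in each cell. IGF1 stands out in cluster 5 (82.1), IGF2BP1 in cluster 4 (146) and INSR, IGFBP3 and IGFBP4 in cluster 8 (179, 40.6 and 96.8).

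Myogenic-like cells were then compared across stages with counts summed per library. Between E28 and E18, 4 of 10 windows passed, with 43.6% of all windows called. IGFBP2 was lower, with 78.6, 66.4, 51.5, 50.4, 45.2 and 36.1 CPM (-0.89 ± 0.13, edgeR adjusted p 0.0013), but with the offset in these cells it was 0.61 (0.008), so that the direction turned. IGFBP5 was higher (0.39 ± 0.11, 0.0229). IGF2BP1, which did not pass in the whole libraries, rose from 119 and 129 CPM at E18 over 140 and 141 to 160 and 191 at E28 (0.45 ± 0.11, 0.0119), and so did IGFBP3, from 20.2 and 25.2 over 26.5 and 39.0 to 32.7 and 38.7 (0.61 ± 0.16, 0.0169).

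The IGF1 window of myogenic-like cells was highest at E21, with 43.3, 37.9, 72.2, 68.7, 48.4 and 31.5 CPM. It passed in both steps, as 1 of 2 windows that passed from E18 to E21 (0.78 ± 0.16, edgeR adjusted p 0.0199, with 10.4% of all windows called) and the only one from E21 to E28 (-0.87 ± 0.15, adjusted p 0.016, with 7.28% called). The other window from E18 to E21 was IGFBP2 (-0.53 ± 0.13, 0.0365), which was at 0.10 with the offset (0.746). These calls turned on single libraries. In the first step none held without either E18 or either E21 library, and in the second none held without E21 DZ. Fewer windows also passed between E28 and E18 without either E18 library. The share of all windows called was not computed for these fits, so the members' counts cannot be set beside it.

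In 7 clusters every library had enough cells for a comparison of E28 with E18 within the cluster, a comparison added after the data had been seen. From 1 to 4 of the 10 windows passed per cluster, with 22.6% to 43.6% of all windows called. In myogenic-like cells 22 of 63 regions passed, 15 higher and 7 lower, with 35.9% of all regions called. The IGF1 promoter region was higher at E28 in all 7 and passed in 5, with rises from 0.74 to 3.34 on the log2 scale. In myogenic-like cells it had 2.93, 3.03, 24.0, 18.6, 18.2 and 12.5 CPM, so that it had opened by E21 (2.40 ± 0.28 between E28 and E18, edgeR adjusted p 0.000408). In cluster 0 it had 1.56, 3.78, 17.1, 17.9, 26.7 and 25.4 CPM (3.34 ± 0.37, 0.000241), and in endothelial-like cells it was already at 26.7 and 25.6 CPM at E18 and reached 56.1 and 46.5 at E28 (0.89 ± 0.22, 0.0159).

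INSR intron 2 rose in 6 of 7 clusters (0.45 to 1.16 over the 7), in myogenic-like cells from 30.6 and 33.7 CPM to 48.9 and 59.8 (0.82 ± 0.14, edgeR adjusted p 0.00208). The IGFBP5 promoter rose in 5 of 7 (0.12 to 0.86) and its window, which holds mostly the same counts, in 5. The IGFBP2 window was lower in all 7 and passed in 6 (-1.22 to -0.63). The direction of the latter turned with the offset in the whole libraries and in myogenic-like cells, and the offset was not applied in the other clusters. The IGF1 window passed in cluster 0 alone (0.94 ± 0.17, 0.00398) and the INSR window in fibroblast and mesenchyme-like cells alone (0.58 ± 0.15, 0.0186), and the differences between clusters were not tested.

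The neighbouring IGF2R regions also moved within clusters. The region at 46.2 kb fell in 6 of 7, in myogenic-like cells from 47.0 and 53.2 CPM to 26.3 and 25.8 (-0.87 ± 0.16, edgeR adjusted p 0.00324). The region at 52.2 kb rose in 5 of 7, in sclerotome and cartilage-like cells from 9.23 and 5.27 CPM to 39.5 and 30.4 (2.33 ± 0.33, 0.00128), but in myogenic-like cells it had 3.71, 3.36, 5.82, 4.15, 5.39 and 2.22 CPM (0.06 ± 0.43, 0.928). The fall of the GC-rich intron 2 element of IGF2R passed in none of the 7 (-0.72 to 0.54, smallest edgeR adjusted p 0.0518).

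IGF2BP1 intron 2 showed opposite directions that its library totals did not show. It passed as a rise in myogenic-like cells, with 26.1, 33.2, 42.8, 40.1, 53.6 and 54.9 CPM (0.95 ± 0.14, edgeR adjusted p 0.00121), and as a fall in cluster 0 (-1.11 ± 0.29, 0.018) and in fibroblast and mesenchyme-like cells, with 32.3, 25.2, 23.8, 20.5, 12.1 and 6.53 CPM (-1.52 ± 0.32, 0.00331). In myogenic-like cells the IGF2BP1 promoter rose as well, from 61.2 and 58.1 CPM to 72.6 and 90.0 (0.51 ± 0.14, 0.0226), as did the promoter of IGFBP3, from 15.3 and 16.0 to 28.1 and 32.1 (1.0 ± 0.19, 0.00403) and that of IGF1R, from 74.9 and 88.5 to 117 and 116 (0.58 ± 0.11, 0.00346).

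The intron 2 element of IGF1R at 151.5 kb rose in myogenic-like cells. It had 14.1, 13.8, 28.6, 33.4, 56.9 and 65.3 CPM there, with no overlap between stages (2.19 ± 0.16, edgeR adjusted p 6.47e-05). It also passed in cluster 0 (1.46 ± 0.28, 0.00442) and did not in the other five clusters, where the changes ran from -0.57 in epithelial-like cells to 0.91 in fibroblast and mesenchyme-like cells. The intron 20 region of IGF1R was lower at E28 in all 6 clusters where it was tested and passed in 4, among them myogenic-like cells, from 10.2 and 10.7 CPM to 2.05 and 2.38 (-2.17 ± 0.36, 0.00199). Its peaks were 1436 and 1482 bp long in the E18 pair against 293 and 426 bp in the E28 pair, the whole-library fall did not pass with the offset (-0.43), and the offset was not applied to regions within clusters.

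The 3′ intron element of IGF1 differed between the E28 libraries, with 14.1 CPM in ZZ and 6.28 in DZ, and so did the cell numbers of the cluster in which it was most accessible. Within fibroblast and mesenchyme-like cells the values were 36.1 and 40.2 CPM, and within cluster 0 they were 5.57 and 3.48, while the former cluster held 2209 cells in ZZ and 365 in DZ. The part of cell numbers in the library difference was not tested. In sclerotome and cartilage-like cells the element fell with stage, being 12.6 and 11.5 CPM in the E18 pair against 1.67 and 0.816 in the E28 pair (-3.18 ± 0.45, edgeR adjusted p 0.0013).

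**Figure D5:**
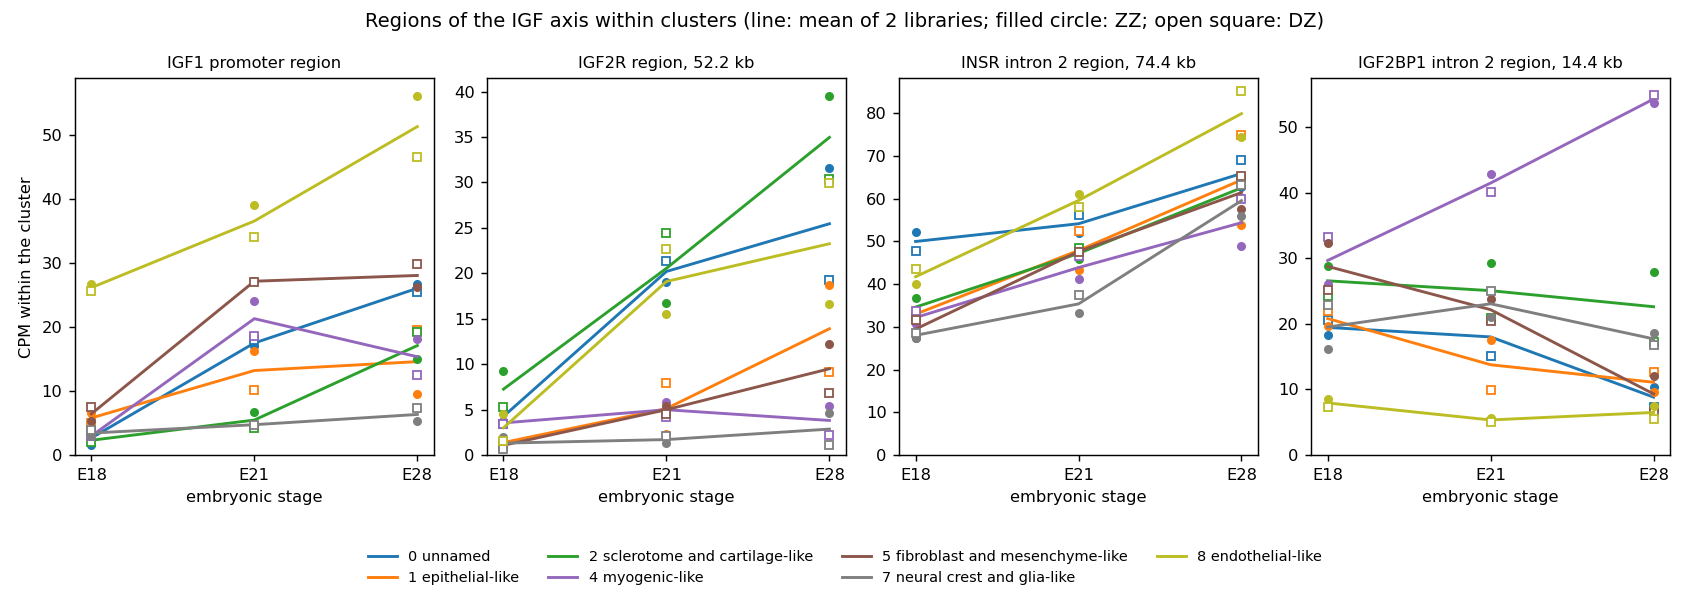
CPM within each of 7 clusters (y axis, from 0) by stage (x axis) for 4 regions, with lines through the mean of the 2 libraries, filled circles for ZZ and open squares for DZ. The IGF1 promoter and the INSR element rise in most clusters, the IGF2R region stays below 6 CPM in myogenic-like cells, and the IGF2BP1 element rises in myogenic-like cells to 53.6 and 54.9 CPM and falls in clusters 0 and 5.

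Other genes of the pathway were taken from a list of 50, of which 47 were annotated and tested. Between E28 and E18, 25 passed (53.2%, against 43.2% of all windows), 15 higher and 10 lower, with a median log2 fold change of 0.12. Leaving out the E18 library of DZ gave 5 passing windows and that of ZZ 11, whereas 15 passed when E28 DZ was dropped, 17 when either E21 library was and 24 when E28 ZZ was. In these fits 7.42% of all windows passed without E18 DZ, 20.8% without E18 ZZ and 31.6% to 41.4% in the others. With covered length as an offset, 37 were higher and 1 lower, in a fit that called 69.3% of all windows tested and had a median over all windows of 0.54. Between E21 and E18 there were 1 higher, which was PIK3CA with no counts at E18, and 2 lower (6.38% of the 47, against 4.15% of all windows). Between E28 and E21 there were 1 higher and 3 lower (8.51%, against 7.43%). Between the breeds 0 passed by edgeR, with 3 at an unadjusted p under 0.05 and 1 by DESeq2, against 5.35% and 2.26% of all windows.

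Growth hormone acts through GHR to raise IGF1 production, and the GHR window had 100, 103, 125, 135, 181 and 185 CPM (0.81 ± 0.08, edgeR adjusted p 0.00271). PAPPA, the protease that cleaves IGFBP4, had 228, 231, 154, 157, 118 and 109 CPM (-1.05 ± 0.08, 0.00198), but its change with the offset was 0.32. IGFALS, the subunit that completes the circulating IGF complex, had 31.8, 31.2, 15.7, 12.3, 10.4 and 7.76 CPM and fell under either fit (-1.84 ± 0.15, 0.00217, and -1.46 with the offset).

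PLAG1, a transcription factor that activates IGF2, rose by 0.67 ± 0.09 (edgeR adjusted p 0.00533), and the downstream kinases RPS6KB1 and GSK3B rose by 0.73 ± 0.10 (0.00574) and 0.53 ± 0.09 (0.00795). With the offset the changes of PLAG1, RPS6KB1 and GSK3B were 0.87, 0.40 and 0.81, and that of GHR was 0.67, beside a median of 0.54 over all windows. The receptor gene INSRR fell by 0.96 and DIS3L2 fell by 0.67 on the log2 scale, and with the offset their values were 0.12 and 0.42. The window of PIK3CA held no peak at E18 and that of INS none at E28, and no fold is given for either, although both count among the 25. The E28 libraries had 7.97 and 10.5 CPM for PIK3CA, and the E18 libraries 3.26 and 2.06 for INS.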

How the data were processed

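Single-cell ATAC-seq had been run on 6 libraries, 1 for each of 3 stages in 2 breeds. The authors made the deposited values with Cell Ranger ATAC (software version 1.2.0 in the matrix headers) on Sscrofa11, as raw counts per peak and barcode, with peaks called in each library separately. Between 90.05% and 92.41% of nonzero values were even, so that limits set on these counts need not be limits in fragments. The members and gene lists were chosen with earlier results of these data known.

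Of 64439 barcodes 58809 (91.3%) with 2000 to 30000 counts were kept, giving 89816504 to 133037579 counts per library and a median of 8084.5 to 11452 per barcode. Pairs of libraries shared 113 to 157 barcode sequences. Doublets were limited only by the upper bound. Peaks were merged across libraries at 1 bp of overlap and annotated with RefSeq gene models of Sscrofa11.1, whereas the study used Ensembl gene models. Promoters overlapped the 2 kb before an annotated start.

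Counts were summed per library, scaled by TMM (factors 0.98 to 1.02) and tested with the edgeR 4.0.16 quasi-likelihood test (R 4.3.3), with stage and breed as terms, which left 2 residual degrees of freedom, and Benjamini-Hochberg adjustment at 0.05. Stage effects thus rest on pools of embryos from different sows. DESeq2 1.42.0, other normalization, barcode limits, filters, covered length as an offset and leaving out each library were alternatives. A stage without a called peak gave no fold. On simulated data for E28 against E18 with 23233 windows, 64% of 2-fold and 26% of 1.5-fold changes were recovered, and with 78533 regions 22% and 4%. Few features were changed in the simulation, while 43.2% of windows and 37.1% of regions passed in the data. The adjustment was therefore stricter in the simulation, and these shares are not the recovery in the comparisons reported.

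Cells were clustered from 39287 regions by TF-IDF, 50 components (the first, with a correlation of 0.976 to log depth, was dropped), 5 neighbours per library and the Leiden algorithm at a resolution of 0.6 (leidenalg 0.10.2), leaving out 100 kb around members and markers. A cluster was named from at least 3 markers with a log2 fold over 0.5. Cells were never replicates. Named were all members and, for each, the promoter region and the intron region of highest mean CPM, up to 4 further regions that passed a stage comparison by absolute log2 fold change (those with covered lengths within 1.5 times first) and the stage-specific region with most counts, and up to 10 pathway genes that passed E28 against E18. Others are named as chosen after their values were seen. One promoter sequence is not reported here.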

Additional observations from a re-analysis of the deposited data

Results flagged for a closer look

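These values stood out because the change from E18 to E28 went opposite ways in the breeds, with 1 library per stage and breed, so that the difference was not tested. Each is the log2 change in DZ minus that in ZZ. For the IGF2 window it was 1.48 (0.79 in DZ, -0.69 in ZZ), for the IGFBP4 window 0.89 (0.14 and -0.75) and for the IGF1R window -0.10 (-0.07 and 0.03). For the 3′ intron region of IGF1 it was -0.95 (-0.44 and 0.51), for the IGF2 region at 1.5 kb 0.56 (0.34 and -0.22), for the IGFBP2 promoter -0.78 (-0.73 and 0.05) and for the IGFBP5 intron region at 9.9 kb -0.11 (-0.07 and 0.04). Per kb of covered length the windows of IGF2, IGFBP4 and IGF1R rose from E18 to E28 in both breeds. IGF2 went from 3.51 to 6.52 CPM in ZZ and from 3.76 to 6.22 in DZ. IGFBP4 went from 5.3 to 12.1 in ZZ and from 7.85 to 9.9 in DZ, and IGF1R from 4.81 to 10.7 and from 6.12 to 10.2. The opposite directions of these windows thus depend on whether covered length is part of the measure.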

How the results depend on the processing

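No paired analysis was possible because the labels give no replicate numbers that pair libraries beyond breed, which was already a term of the stage comparisons. With covered length as an offset, 3, 6 and 10 member windows, 9, 27 and 32 member regions and 14, 32 and 38 pathway windows passed from E18 to E21, from E21 to E28 and from E18 to E28, and 4, 5 and 8 windows in myogenic-like cells. Of all features tested with the offset 22.3%, 44.5% and 69.3% of windows and 18.5%, 33.6% and 52.7% of regions passed in these comparisons, and 18%, 28.2% and 58.7% of windows in myogenic-like cells. The offset moved the median of all windows from E18 to E28 to 0.54 and that of all regions to 0.43. In it the E28 against E18 values of the windows changed sign to 0.88 (IGF1R), 0.42 (IGF2R), 0.52 (IGFBP2), 0.69 (IGFBP4) and 0.37 (IGF2BP1), that of the IGFBP2 region at 30.2 kb to 0.38, and that of the IGFBP2 window from E21 to E28 to 0.13. DESeq2 called 2 and 3 windows, 12 and 14 regions and 21 and 21 pathway windows in the steps from E18 to E21 and from E21 to E28, and 1 pathway window between breeds. Over all features it called 7943 and 8036 of 23286 windows and 14219 and 15465 of 78533 regions in these steps. With regions of any library 0 regions passed in either step, and without the breed term 0 windows from E21 to E28. The shares of all features called were not computed for these fits, so a loss particular to the members cannot be told from a general one. With the promoter part of each window alone, 0 of 9 windows passed from E21 to E28 and 2 from E18 to E28, against 4.02% and 34.3% of all such windows, with no value where a stage had no counts. Among regions with covered lengths within 1.5 times, 7 of 40 passed, against 26.7% of all 43917 such regions. Within cells of clusters 1, 2, 7 and 8 alone 2, 2, 1 and 2 of 10 windows passed from E18 to E28. Of all windows 26.4%, 35.3%, 26.6% and 24.5% were called in these clusters. Within clusters 0, 1, 5, 7 and 8 alone 11, 8, 13, 8 and 10 regions passed, of 63, 52, 59, 60 and 53 tested. Of all regions 20.8%, 11%, 19.3%, 14.8% and 14.9% were called there. The cause of these shifts was not tested.

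Leaving out 1 library gave, from E18 to E28, 1 to 4 windows, 6 to 21 regions and 5 to 24 pathway windows. From E18 to E21 it gave 0 windows, 0 to 14 regions and 0 to 8 pathway windows, and from E21 to E28 0 to 1 windows, 0 to 11 regions and 0 to 5 pathway windows. Between breeds it gave 0 of each. In the stage comparisons the share of all windows and of all regions that passed also moved with the library left out. From E18 to E21 and from E21 to E28 it was lowest without a library of E21 and highest without one of E28. From E18 to E28 it was lowest without E18 DZ and highest without E28 ZZ. The ranges for stages are therefore not read as a trait of the members or of the pathway. In myogenic-like cells the number of windows that passed also moved in each comparison, and the share of all windows called was not computed for those fits. With 2 libraries per stage and 2 residual degrees of freedom, the test recovered 64% of simulated 2-fold changes of windows from E18 to E28. For regions it recovered 22% of 2-fold and 56% of 4-fold changes. Few features were changed in that simulation, so these shares are not the recovery in the comparisons reported. Single-gene values kept direction and side of the threshold in 39 of 39 cases without the filter on low counts, 38 with another normalization, 37 with all barcodes, 29 without E18 ZZ, 26 without E18 DZ and 18 with the offset, under which 7 changed sign, 4 no longer passed and 10 newly passed.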
